A study of Sus scrofa with 8 samples.

Results

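The genes described here encode the scaffold cullin 3 (CUL3) and the families of BTB proteins, named KLHL, KBTBD, KCTD and BTBD, that include its substrate adaptors. They were taken from the deposited gene table by symbol, which gave 71 genes. The 46 with a mean of at least 1 FPKM (mapped fragments scaled by transcript length and by the size of the library) over the 8 libraries were kept, of 9821 such genes in a table of 23235. They are 24 KLHL, 4 KBTBD, 10 KCTD and 7 BTBD genes and CUL3. The 25 left out include KBTBD13, a nemaline myopathy gene, at a mean of 0.489 FPKM. The limit of 1 FPKM fell between KLHL26 at 1.10 FPKM, just inside, and KLHL15 at 0.955 FPKM, just outside.

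RNA came from the longissimus dorsi, the long muscle of the back, of weaned Duroc x Landrace x Yorkshire piglets. Piglets of the melatonin group received the pineal hormone melatonin, a signal of night length, in 10 mL of saline at 5 mg/kg. The control group was given saline alone in the same volume. In both groups animals of 28 days had 5 days to adapt and were then dosed by gavage daily for 23 days, on one basal diet. Each group had 6 piglets, and 4 libraries of each were sequenced, with total counts of 53471667 to 60629098. The labels number the libraries and do not tie them to piglets, so p-values measure the spread between these samples. The comparison asks what oral melatonin does to the muscle transcriptome.

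Cullin 3 is the backbone of a family of ubiquitin ligases. One end carries the RING protein that recruits ubiquitin, and the other end binds the BTB domain of an adaptor, whose second domain, in KLHL and KBTBD proteins a kelch propeller, holds the protein to be marked. Some kelch proteins of skeletal muscle are best known for stabilising the thin filament, and mutations in KLHL40, KLHL41 and KBTBD13 cause nemaline myopathy in humans. A list of 9 genes known to be enriched in skeletal muscle was set apart as muscle-restricted, and 8 of these passed the level filter.

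The libraries carried the markers of skeletal muscle. The 6 matched fibre genes, among them ACTA1 and CKM, summed to 78513 to 101534 FPKM in melatonin libraries and 95799 to 111210 FPKM in control libraries. Fibroblast and tendon genes set melatonin replicates 1 and 3 apart. The 8 fibroblast and matrix genes summed to 8485 and 2535 FPKM in those libraries, to 663 and 673 FPKM in melatonin replicates 2 and 4, and to 484 to 956 FPKM in controls. The 5 tendon genes summed to 946 and 378 FPKM in melatonin replicates 1 and 3, to 31.5 and 20.8 FPKM in melatonin replicates 2 and 4, and to 15.8 to 31.5 FPKM in controls, with COMP or SCX at 0 in some libraries. In bulk RNA, fewer cells of a type and less RNA per cell cannot be told apart.

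No member passed the test between melatonin and control libraries. Fold changes are given as log2 of melatonin over control with their standard error (SE), and edgeR's quasi-likelihood test on the counts called 0 of 46 members at an adjusted p under 0.05 (Benjamini-Hochberg over all genes tested), where 0% of all genes passed. DESeq2 called 0 members too, with 0.662% of all genes passing, and limma on FPKM called 0. The looser threshold of an unadjusted p under 0.05 was met in edgeR by 6 of 46 members (13.0%), against 10.5% of all genes, DESeq2 gave 7 (12.3% of all genes) and limma on log2(FPKM + 1) gave 3. Of the 6, 4 lay higher after melatonin, where the share over all genes was 6.67%, and 2 lower, where it was 3.84%. The FPKM values of the groups did not overlap in 0 of 46 members, against 2.2% of all genes (1.13% with melatonin above and 1.07% with melatonin below). The median log2 fold change of the members was 0.054, against -0.0014 over all genes tested, and 27 members lay above 0 and 19 below, with 49.8% of all genes above 0. That share differed with level. At 1 to under 5 FPKM 15 of 23 members and 3099 of 5485 genes lay above 0. At 5 to under 50 FPKM the counts were 11 of 19 and 1636 of 3819, and from 50 FPKM 1 of 4 and 158 of 517. A size of at least 0.5 on the log2 scale was reached by 8 members (17.4%), against 13.1% of all genes.

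**Figure D1:**
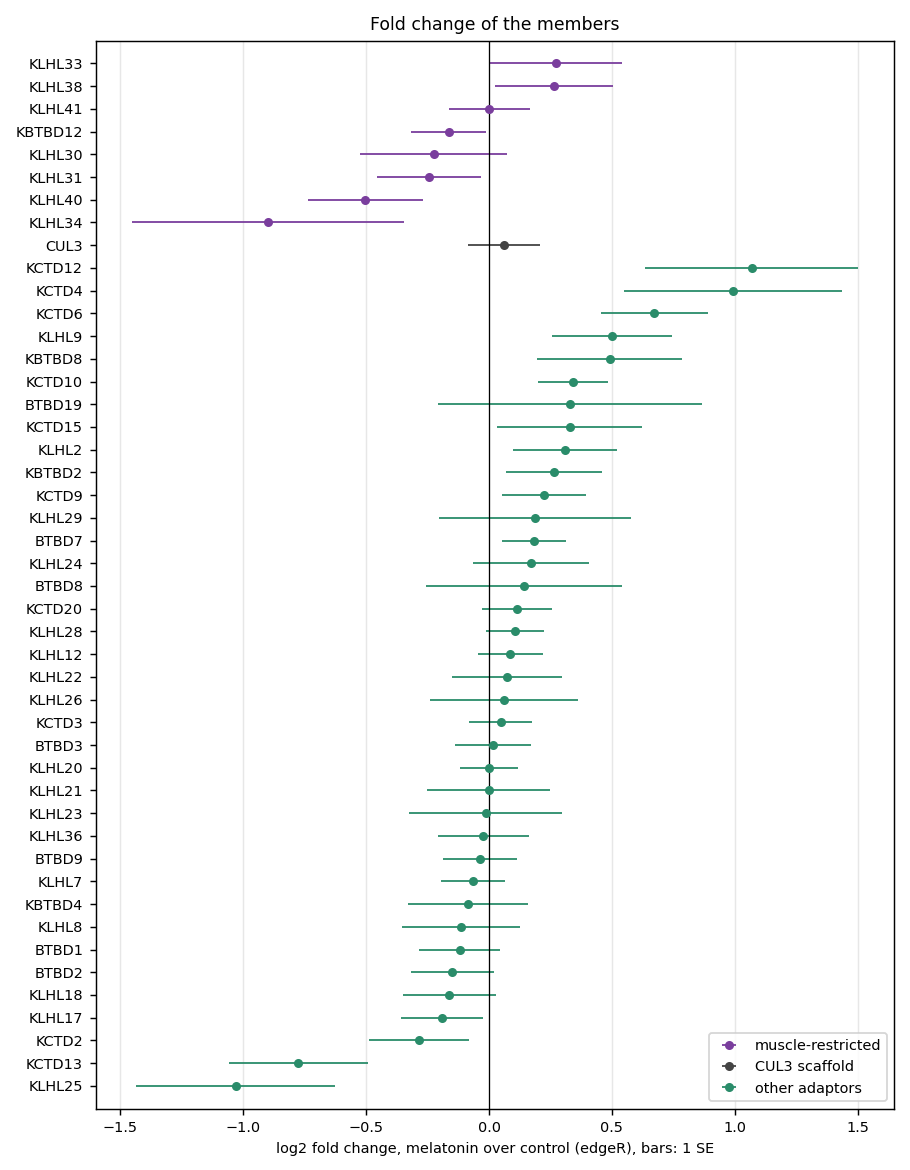
Log2 fold change of melatonin over control (horizontal axis, edgeR) for the 46 members, with bars of 1 SE, grouped as muscle-restricted members, CUL3 and the other adaptors and ordered by value within each group. Values run from -1.03 (KLHL25) to 1.07 (KCTD12), and none passed the adjusted threshold.

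Levels differed far more between members than between groups. KLHL41 was the most abundant at a mean of 662 FPKM over the 8 libraries, 9.29 times the next member, BTBD1, and rank 51 of all genes in the table. BTBD1 (71.2 FPKM), which binds topoisomerase I, was followed by the muscle-restricted KLHL40 (54.0), KLHL31 (52.4) and KLHL33 (48.8). The order of KLHL40, KLHL31 and KLHL33 is within their spread over libraries. CUL3 itself ranked 10 among the members at 12.9 FPKM, so that KLHL41 mRNA exceeded that of the scaffold 51.2 times per unit of length. Of the 6 members at 20 FPKM or more, 4 were muscle-restricted, 17 members lay between 5 and 20 FPKM, and 23 lay below 5 FPKM. The median level was 31.2 FPKM for the 8 muscle-restricted members, 2.92 FPKM for the 37 other adaptors and 4.20 FPKM for all genes tested.

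**Figure D2:**
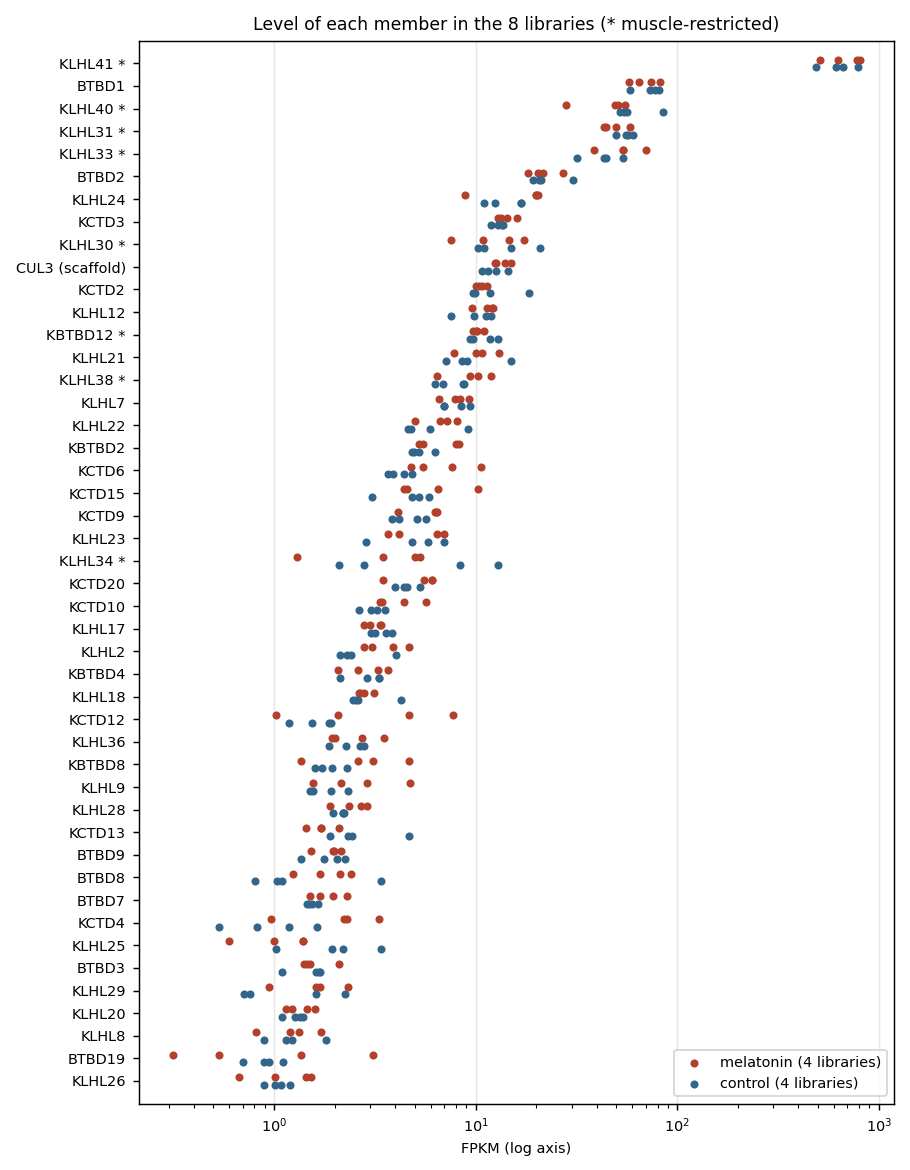
FPKM on a log axis of the 46 members in each of the 4 melatonin and 4 control libraries, ordered by mean level, with muscle-restricted members starred. KLHL41 stands alone at 488 to 809 FPKM, and the 2 groups overlap in each of the 46 members.

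The muscle-restricted members took 76.1 ± 1.08% of the summed FPKM of the 46 members in melatonin libraries and 76.7 ± 0.968% in control libraries (SD, n = 4 each). KLHL41 alone took 59.5 ± 4.29% in melatonin and 58.2 ± 2.69% in control libraries. Both shares differed between groups by less than the SD within either group. The spread within groups was also alike: the median coefficient of variation of FPKM among melatonin libraries was 24.0% for muscle-restricted members and 23.8% for other adaptors, and among controls 20.1% and 19.3%.

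**Figure D3:**
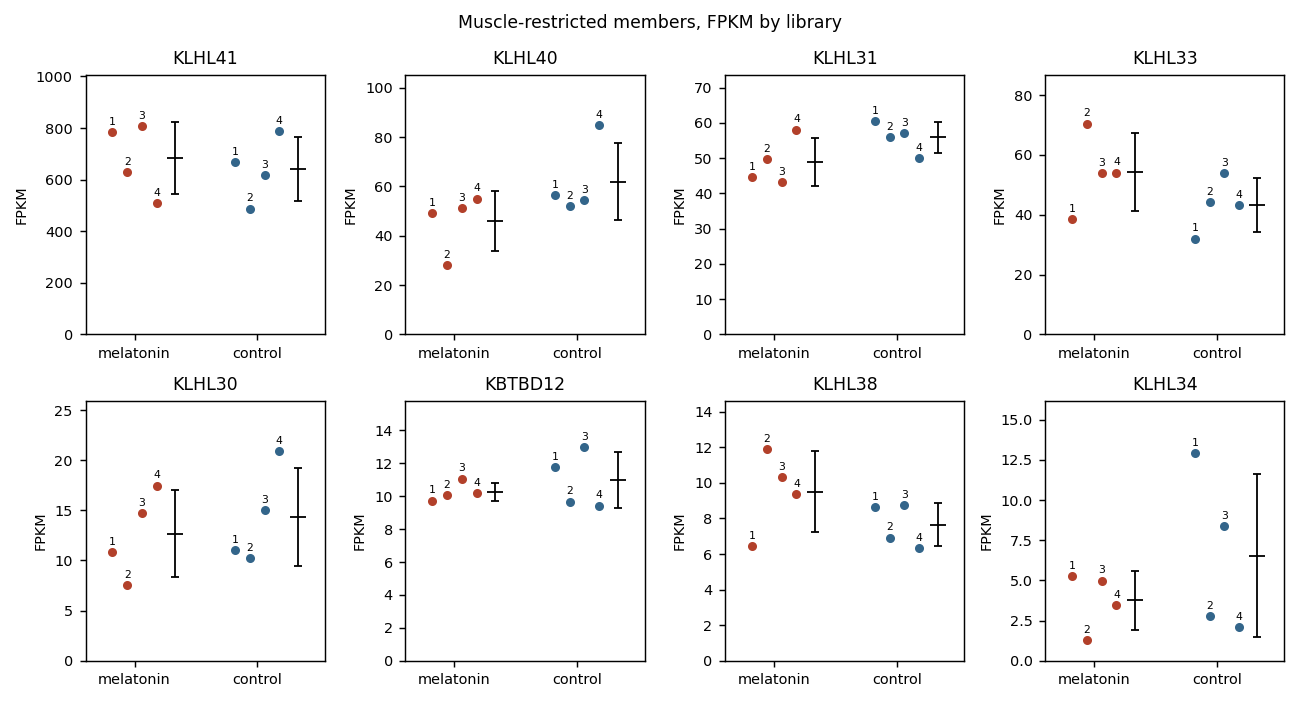
FPKM of the 8 muscle-restricted members kept, by library (numbers are replicates), with the mean and SD of each group of 4 in black. Axes start at 0, the groups overlap in every panel, and KLHL34 shows the widest spread (1.30 to 12.9 FPKM).

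Among the 8 muscle-restricted members edgeR gave 0 at an unadjusted p under 0.05 (10.5% of all genes), and DESeq2 gave 1, KLHL40. In edgeR 3 lay above 0 and 5 below, with a median log2 fold change of -0.19. The 37 other adaptors had a median of 0.074. The difference between these medians was not tested. The 6 skeletal muscle fibre genes, none of them members, all lay below 0, with a median of -0.20. Over all genes tested, the median was 0.051 at 1 to under 5 FPKM. It was -0.043 at 5 to under 50 FPKM and -0.10 from 50 FPKM up. Without melatonin replicates 1 and 3 the median of the muscle-restricted members was -0.026, and without melatonin replicate 4 it was -0.34.

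KLHL41 (chromosome 15, 75875859 to 75893554, in the deposited coordinates of Sscrofa11.1) encodes a kelch protein that stabilises nebulin in the thin filament. It measured 784, 629, 809 and 511 FPKM in melatonin replicates 1 to 4 and 668, 488, 618 and 789 FPKM in control replicates 1 to 4. Both groups span nearly the same range, and its log2 fold change was 0.0014 ± 0.17 (edgeR adjusted p = 0.997).

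KLHL40 (chromosome 13, 26202677 to 26211522), which protects nebulin and leiomodin 3 from degradation, had the smallest p of the muscle-restricted members. It measured 49.2, 28.2, 51.2 and 55.1 FPKM in melatonin replicates 1 to 4 and 56.6, 51.9, 54.6 and 85.0 FPKM in control replicates 1 to 4. In FPKM, which are not TMM-scaled as the tested counts are, melatonin replicate 2 was low and control replicate 4 high. On TMM-scaled counts melatonin replicates 1, 2 and 3 lay at -0.58, -1.04 and -0.53 (log2) from the control mean and replicate 4 at 0.018, and control replicates 1 to 4 at -0.17, -0.037, -0.20 and 0.41. Melatonin replicates 1 to 3 thus lay below all controls on that scale and replicate 4 among them. The log2 fold change was -0.50 ± 0.23 (edgeR adjusted p = 0.485, unadjusted p = 0.0576), and -0.35 without control replicate 4. The unadjusted p was under 0.05 in 4 of 19 alternatives, DESeq2 among them (DESeq2 adjusted p = 0.374). On the opposite strand KLHL40 overlaps HHATL (25.0 FPKM), and whether the counting used strand is not stated. Set against KLHL41 in the same library, KLHL40 had 6.28, 4.49, 6.33 and 10.8% of its FPKM in melatonin replicates 1 to 4 and 8.47, 10.6, 8.84 and 10.8% in control replicates 1 to 4.

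KLHL31 (chromosome 7, 27062044 to 27106111), which controls filamin C in mouse muscle, measured 44.6, 49.6, 43.3 and 58.1 FPKM in melatonin replicates 1 to 4 and 60.5, 56.1, 57.0 and 50.0 FPKM in control replicates 1 to 4. It was low in melatonin replicates 1 and 3, where the fibroblast and tendon genes were high, and the part of those cells in this was not tested. The log2 fold change was -0.24 ± 0.21 (edgeR adjusted p = 0.674), and it was 0.056, of the other sign, without melatonin replicates 1 and 3 and -0.43 without melatonin replicate 4.

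KLHL38 (chromosome 4, 15792997 to 15801464), a kelch gene of skeletal muscle, measured 6.47, 11.9, 10.3 and 9.37 FPKM in melatonin replicates 1 to 4 and 8.62, 6.92, 8.76 and 6.32 FPKM in control replicates 1 to 4. In FPKM melatonin replicates 2, 3 and 4 lay above all controls and replicate 1 below 3 of them. On TMM-scaled counts melatonin replicate 1 lay at -0.50 (log2) from the control mean, below all controls (lowest -0.34). Melatonin replicate 3 lay at 0.163 on that scale, about level with the highest control at 0.158. The log2 fold change was 0.26 ± 0.24 (edgeR adjusted p = 0.685), and 0.58 without melatonin replicates 1 and 3 (edgeR unadjusted p = 0.0118). It was 0.45 without melatonin replicate 1, 0.082 without melatonin replicate 2 and 0.16 without control replicate 4.

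KLHL33 (chromosome 7, 78470321 to 78479959) measured 38.6, 70.5, 53.9 and 54.1 FPKM in melatonin replicates 1 to 4 and 32.0, 44.3, 54.0 and 43.3 FPKM in control replicates 1 to 4. Melatonin replicate 2 was the highest and control replicate 1 the lowest, and the log2 fold change was 0.27 ± 0.27 (edgeR adjusted p = 0.713), and 0.62 without melatonin replicates 1 and 3. It was 0.45 without melatonin replicate 1, 0.064 without melatonin replicate 2 and 0.14 without control replicate 1. KLHL30 (chromosome 15, 137709322 to 137721800) measured 10.8, 7.58, 14.7 and 17.5 FPKM in melatonin replicates 1 to 4 and 11.07, 10.3, 15.0 and 20.9 FPKM in control replicates 1 to 4, -0.23 ± 0.30 on the log2 scale. Its value was between -0.55 (without melatonin replicate 4) and -0.018 (without control replicate 4) when 1 library was left out. KBTBD12 (chromosome 13, 72299103 to 72365511) had the smallest ratio of highest to lowest library among the muscle-restricted members, 1.38, at 9.73 to 11.07 FPKM in melatonin and 9.43 to 13.0 FPKM in control libraries, with a log2 fold change of -0.16 ± 0.15, or -0.0012 without melatonin replicates 1 and 3.

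KLHL34 (chromosome X, 17839245 to 17841191) varied most among the members kept, with its highest library at 9.95 times its lowest. It measured 5.29, 1.30, 4.99 and 3.46 FPKM in melatonin replicates 1 to 4 and 12.9, 2.79, 8.36 and 2.10 FPKM in control replicates 1 to 4. The groups overlapped, and the log2 fold change was -0.90 ± 0.55 (edgeR adjusted p = 0.566), or -0.36 without control replicate 1. The summed FPKM of 6 slow-fibre genes (MYH7, TNNT1, TNNI1, TNNC1, MYL2 and MYL3) moved beside it, at 5417, 664, 6164 and 3014 FPKM in melatonin replicates 1 to 4 and 10112, 2163, 6142 and 3203 FPKM in control replicates 1 to 4. Melatonin replicate 2 was lowest and control replicate 1 highest in both. The part of fibre makeup in the KLHL34 values was not tested.

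**Figure D4:**
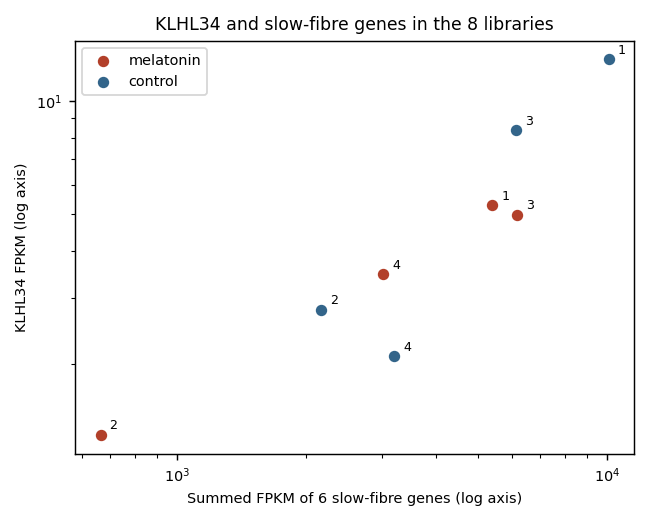
KLHL34 FPKM (vertical, log axis) against the summed FPKM of 6 slow-fibre genes (horizontal, log axis) in the 8 libraries, numbered by replicate. Both measures are lowest in melatonin replicate 2 (1.30 and 664 FPKM) and highest in control replicate 1 (12.9 and 10112 FPKM).

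Among the other adaptors, the 6 members at an unadjusted p under 0.05 were 5 KCTD genes and KLHL25. KCTD proteins carry a BTB domain and no kelch propeller. Of the 10 KCTD members kept, 4 lay higher after melatonin (6.67% of all genes) and 1 lower (3.84% of all genes) at that threshold, and the family median was 0.28 on the log2 scale. The split by family was looked at after the values were seen, and the count was 1 without control replicate 4 and 2 without melatonin replicates 1 and 3.

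KCTD6 (chromosome 13, 40167717 to 40219838) had the smallest p of all members. In mouse muscle it links cullin 3 to small ankyrin-1, an anchor of the sarcoplasmic reticulum. It measured 5.51, 7.66, 10.7 and 4.81 FPKM in melatonin replicates 1 to 4 and 4.84, 3.67, 4.42 and 3.88 FPKM in control replicates 1 to 4. In FPKM melatonin replicate 3 was highest, replicates 2 and 1 lay above all controls, and replicate 4 lay just under the highest control. On TMM-scaled counts melatonin replicates 1 to 4 lay at 0.125, 0.94, 1.07 and 0.36 (log2) from the control mean. The highest control on that scale, replicate 1, lay at 0.146, so melatonin replicate 1 was just under it and replicate 4 above all controls. The log2 fold change was 0.67 ± 0.22 (edgeR adjusted p = 0.440, unadjusted p = 0.0119), with the same sign under every alternative tried (0.52 to 0.82), and its unadjusted p was 0.0376 at most.

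KCTD12 (chromosome 11, 49025131 to 49031309), an auxiliary subunit of GABA-B receptors in brain, measured 7.71, 2.08, 4.66 and 1.02 FPKM in melatonin replicates 1 to 4 and 1.54, 1.19, 1.87 and 1.92 FPKM in control replicates 1 to 4. Melatonin replicates 1 and 3, the libraries with high fibroblast and tendon genes, were its highest, and replicate 4 was its lowest of all 8. The log2 fold change of 1.07 ± 0.43 (edgeR adjusted p = 0.457) became 0.042 without those 2 libraries. The part of connective tissue in the KCTD12 values was not tested further.

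KCTD10 (chromosome 14, 41442777 to 41470209) and KCTD13 (chromosome 3, 18124573 to 18141565) are close relatives that both direct cullin 3 to the GTPase RhoA, and their values lay on opposite sides of control. KCTD10 measured 5.71, 3.37, 4.39 and 3.43 FPKM in melatonin replicates 1 to 4 and 3.54, 2.64, 3.23 and 3.02 FPKM in control replicates 1 to 4, which gave 0.34 ± 0.14 on the log2 scale (edgeR adjusted p = 0.461). In FPKM its highest libraries were melatonin replicates 1 and 3. On TMM-scaled counts melatonin replicates 1 to 4 of KCTD10 lay at 0.61, 0.19, 0.23 and 0.31 (log2) from the control mean. All of these were above the highest control, replicate 1 at 0.13. In FPKM the groups overlapped for KCTD10. The share of all genes without overlap on TMM-scaled counts was not counted, so this separation cannot be set against it. KCTD13 measured 1.71, 1.45, 2.10 and 1.70 FPKM in melatonin replicates 1 to 4 and 1.90, 2.32, 2.43 and 4.66 FPKM in control replicates 1 to 4, -0.78 ± 0.28 (edgeR adjusted p = 0.446). Control replicate 4 stood above the rest, and without it the value was -0.47 (edgeR unadjusted p = 0.0662). Whether the fold changes of KCTD10 and KCTD13 differ from each other was not tested.

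**Figure D5:**
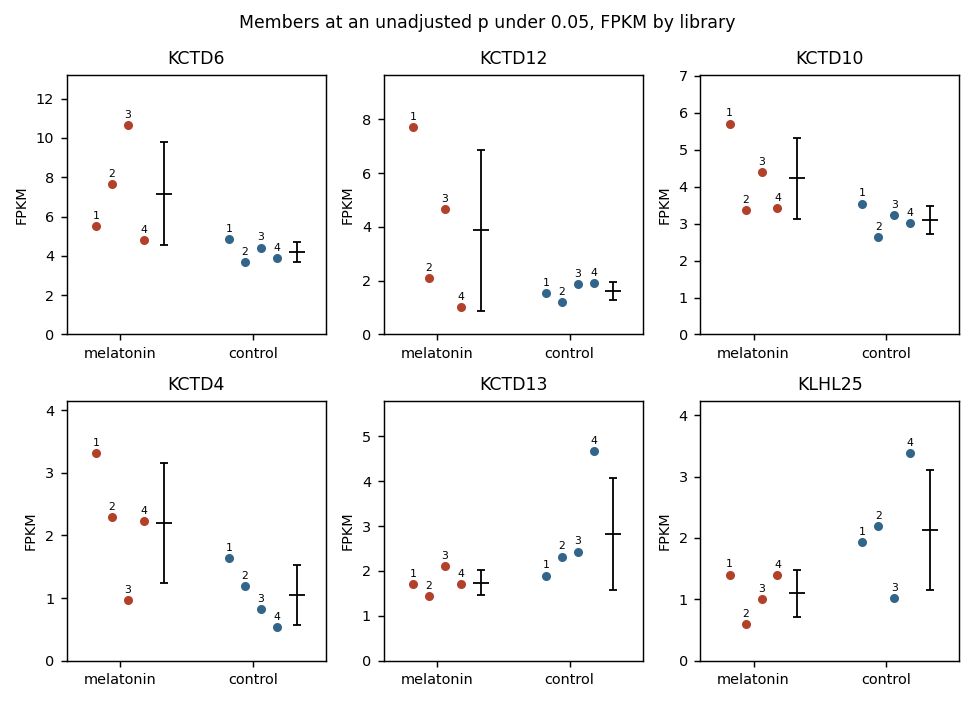
FPKM by library (numbers are replicates) of the 6 members at an unadjusted p under 0.05, with the mean and SD of each group of 4 in black and axes from 0. KCTD12 peaks in melatonin replicates 1 and 3 (7.71 and 4.66 FPKM), KCTD6 in melatonin replicate 3 (10.7 FPKM), and KCTD13 and KLHL25 in control replicate 4 (4.66 and 3.39 FPKM).

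KCTD4 (chromosome 11, 22056743 to 22076408) measured 3.32, 2.29, 0.963 and 2.22 FPKM in melatonin replicates 1 to 4 and 1.64, 1.19, 0.820 and 0.534 FPKM in control replicates 1 to 4, which gave 0.99 ± 0.44 on the log2 scale (edgeR adjusted p = 0.473). Melatonin replicate 3 lay within the controls and the other melatonin libraries above them. On the opposite strand it overlaps GTF2F2, a transcription factor subunit gene at 2.87 FPKM. KLHL25 (chromosome 7, 88262385 to 88264691), the adaptor for the translation repressor 4E-BP1, measured 1.40, 0.596, 0.998 and 1.39 FPKM in melatonin replicates 1 to 4 and 1.93, 2.19, 1.02 and 3.39 FPKM in control replicates 1 to 4. Control replicate 3 lay within the melatonin range, and the log2 fold change was -1.03 ± 0.40 (edgeR adjusted p = 0.453). It rests on few reads, 46 to 254 counts per library.

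The lower side of the other adaptors was completed by KCTD2 and KLHL17, both short of an unadjusted p of 0.05. KCTD2 had 10.1 to 11.4 FPKM in melatonin libraries and 9.70 to 11.8 FPKM in control replicates 1 to 3, with control replicate 4 at 18.5 FPKM (-0.29 ± 0.20, or -0.070 without that library). On the opposite strand KCTD2 overlaps a protein-coding gene without a symbol at 129 FPKM, and whether the counting used strand is not stated. KLHL17, an actin-binding kelch protein of neurons, had 2.79 to 3.40 FPKM in melatonin and 3.04 to 3.84 FPKM in control libraries (-0.19 ± 0.17, or -0.082 without melatonin replicate 3). KLHL17 overlaps NOC2L on the opposite strand at 6.99 FPKM. BTBD1 had 58.1 to 82.2 FPKM in melatonin and 58.4 to 81.1 FPKM in control libraries (-0.12 ± 0.16).

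Further adaptors of known function gave no call, and 5 were picked out after their values were seen. Their edgeR log2 fold changes were 0.26 for KBTBD2, 0.074 for KLHL22, 0.17 for KLHL24, 0.087 for KLHL12 and 0.50 for KLHL9. All 5 thus lay above 0, whereas of the 37 other adaptors 23 lay above 0 and 14 below. The FPKM given here were not TMM-scaled. KBTBD2, which limits the p85 subunit of PI3-kinase and so insulin signalling in mice, averaged 6.75 ± 1.61 FPKM in melatonin and 5.34 ± 0.671 FPKM in control libraries. KLHL22, which brings DEPDC5 to cullin 3 and so releases mTORC1, averaged 6.76 ± 1.30 and 6.13 ± 2.11 FPKM in melatonin and control libraries. KLHL24, the adaptor for keratin 14 in skin, averaged 17.3 ± 5.65 FPKM in melatonin and 14.3 ± 3.00 FPKM in control libraries. KLHL12, which acts on SEC31 at the coat of collagen-carrying vesicles, averaged 11.3 ± 1.22 FPKM in melatonin and 10.1 ± 1.96 FPKM in control libraries. KLHL9, mutated in a human distal myopathy, averaged 2.84 ± 1.37 FPKM in melatonin and 1.83 ± 0.377 FPKM in control libraries (SD, n = 4 each), with an edgeR adjusted p = 0.496.

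CUL3 (chromosome 15, 126189851 to 126287005) measured 12.4, 14.0, 15.1 and 12.6 FPKM in melatonin replicates 1 to 4 and 11.5, 10.7, 12.7 and 14.5 FPKM in control replicates 1 to 4. Its libraries stayed within 1.40 times of each other, and the log2 fold change was 0.060 ± 0.15 (edgeR adjusted p = 0.895). Of 13 genes of the RING and NEDD8 core, which load and activate cullins, 0 reached an unadjusted p under 0.05 in edgeR or DESeq2 (10.5% and 12.3% of all genes), with a median of -0.089. The 7 other cullins also gave 0, with a median of 0.045. The COP9 signalosome, which strips NEDD8 from cullins, had 1 of 10 subunits above 0, where 49.8% of all genes lay above 0, and a median of -0.14. Its subunits lay at 5.85 to 46.9 FPKM. At 5 to under 50 FPKM 1636 of 3819 genes lay above 0, and the median was -0.043. The 1 COP9 subunit at an unadjusted p under 0.05 in edgeR, COPS3, is 10.0% of the list, near the 10.5% of all genes. COPS3 measured 25.5 to 29.4 FPKM in melatonin and 31.2 to 43.7 FPKM in control libraries, without overlap (1.07% of all genes lay wholly below control), which gave -0.44 ± 0.18 on the log2 scale (edgeR adjusted p = 0.463). Without melatonin replicates 1 and 3, the libraries with high fibroblast and tendon genes, it was -0.20 (edgeR unadjusted p = 0.313).

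BTB adaptors outside the naming rule gave 3 of 15 genes at an unadjusted p under 0.05 in edgeR, against 10.5% of all genes. ANKFY1, an endosomal protein, measured 1.53 to 2.37 FPKM in melatonin and 1.18 to 1.51 FPKM in control libraries (0.44 ± 0.12), without overlap (1.13% of all genes lay wholly above control). ZBTB16, a zinc-finger repressor, averaged 19.9 ± 9.28 FPKM in melatonin and 7.72 ± 2.22 FPKM in control libraries (1.25 ± 0.35), with melatonin replicate 4 at 7.58 FPKM, among the controls. RHOBTB2 averaged 2.40 ± 0.327 FPKM in melatonin and 3.22 ± 0.700 FPKM in control libraries (-0.50 ± 0.22, or -0.30 without melatonin replicates 1 and 3). All 3 had an edgeR adjusted p of 0.440 or above, where 0.440 was the smallest of all genes tested. The DESeq2 adjusted p was 0.0524 for ZBTB16, 0.0712 for ANKFY1 and 0.374 for RHOBTB2. The unadjusted p was under 0.05 in 19 of 19 alternatives for ZBTB16, 18 of 18 for ANKFY1 and 10 of 18 for RHOBTB2. KEAP1, the kelch adaptor for the antioxidant factor NRF2, averaged 27.5 ± 2.28 FPKM in melatonin and 32.2 ± 8.10 FPKM in control libraries (edgeR adjusted p = 0.577), with control replicate 4 at 44.3 FPKM.

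Transcripts of proteins that the members bind or mark gave 0 of 16 tested genes at an unadjusted p under 0.05 in edgeR (10.5% of all genes), with a median log2 fold change of -0.039. DESeq2 gave 1 of 16 (12.3% of all genes), DES, the intermediate filament desmin, at 1178 ± 270 FPKM in melatonin and 1475 ± 303 FPKM in control libraries (edgeR -0.41 ± 0.21, adjusted p = 0.519). NEB, the nebulin held by KLHL40 and KLHL41, averaged 364 ± 53.8 FPKM in melatonin and 367 ± 27.2 FPKM in control libraries. LMOD3, leiomodin 3, averaged 167 ± 61.2 FPKM in melatonin and 137 ± 38.5 FPKM in control libraries. FLNC, filamin C, averaged 203 ± 55.5 and 191 ± 46.8 FPKM, and ANK1, the ankyrin gene tied to KCTD6, 4.16 ± 1.63 and 4.88 ± 0.292 FPKM, in melatonin and control libraries (SD, n = 4 each). In edgeR the log2 fold changes were -0.074 for NEB, 0.18 for LMOD3, -0.043 for FLNC and -0.25 for ANK1. FLNC thus lay higher after melatonin in mean FPKM and below 0 in edgeR, by less than its SE of 0.26. NEB, LMOD3, FLNC and ANK1 were picked for their tie to the members described above, after their values were seen.

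Single libraries shaped many of these values. On TMM-scaled counts, control replicate 4 was the highest library for 15 of 46 members, melatonin replicate 2 for 12 and melatonin replicate 1 for 8, and each of the other 5 libraries for 1 to 4. Control replicate 4 was also the lowest for 9 members, more than any other library. The same counts over all genes tested were not made, so this pattern is not shown to be particular to the members. The median size of the deviation from the control mean was 0.34 on the log2 scale over the members in melatonin replicate 2, against 0.25 over all genes tested, and 0.27 against 0.20 in control replicate 4. In every other library the members' value was below that of all genes. It was 0.26 against 0.31 in melatonin replicate 1 and 0.11 against 0.15 in control replicate 2, and nearly equal in control replicate 3.

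In the deposited annotation 15 of 46 members carry the gene ontology term for the cullin 3 ligase complex, among them KLHL41 and none of the other muscle-restricted members. KLHL41 and KLHL23 lie 136009 bases apart on chromosome 15, the nearest pair among the members kept, at means of 662 and 5.23 FPKM. KLHL23 averaged 5.33 ± 1.63 FPKM in melatonin and 5.13 ± 1.76 FPKM in control libraries (SD, n = 4 each). Its edgeR log2 fold change was -0.013 ± 0.31.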

How the data were processed

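Poly(A) RNA was sequenced in 4 melatonin and 4 control libraries made with dUTP strand marking, per the labels' protocols. The deposited table holds a raw count per gene and library, per the file headers. It also holds the authors' FPKM per gene and library, per the file headers, which scale those counts by length and library. FastQC, StringTie, DESeq2 and Sscrofa11.1 are named in the submitters' processing notes. The sources used here name no aligner, annotation release or batch. All columns were mapped (0 left over).

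Counts of the 9821 genes at a mean of at least 1 FPKM were tested in edgeR 4.0.16 (R 4.3.3; TMM, legacy quasi-likelihood F test, no covariate), with Benjamini-Hochberg adjustment at 0.05. SE is the size of the log2 fold change divided by the root of F. FPKM were not TMM-scaled, and TMM factors ran from 0.853 to 1.18. DESeq2 1.42.0, limma 3.58.1, other scalings and filters, a replicate block and left-out libraries were alternatives. Plots used Matplotlib 3.10.9. The test was checked on simulated counts. No 2 libraries were duplicates (smallest chi-square per degree of freedom 53.2).

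Members and lists were chosen with earlier results of these data known. Named were CUL3, the muscle-restricted members, the 4 other adaptors of smallest p per direction and up to 8 while p was under 0.05, the 3 highest members, and pathway genes at an unadjusted p under 0.05.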

Additional observations from a re-analysis of the deposited data

Results flagged for a closer look

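Of the 22 genes named by rule, looked at in both groups, KLHL40 had 1 library far from the rest of its group: control replicate 4 at 85.0 FPKM, with the other controls at 51.9 to 56.6 FPKM. Chance marks about 1 group in 20 in this way, and 44 groups were looked at.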

How the results depend on the processing

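Of 410 values of the 22 named genes under the alternatives, 395 kept their sign and side of the adjusted threshold, and members called stayed at 0 under every alternative run. Genes called of all tested were 65 in DESeq2 and ranged from 0 to 15 when 1 library was left out (15 without melatonin replicate 4). Members at an unadjusted p under 0.05, 6 in the main analysis, numbered 1 with a mean FPKM of at least 5, 3 by limma at either pseudocount (1 or 0.1), and 2 to 8 with 1 library left out (2 without control replicate 2, 3 without control replicate 3, 8 without melatonin replicate 4). For KCTD genes, 5 in the main analysis, the count was 1 at 5 FPKM, 2 by limma at either pseudocount, 2 without melatonin replicates 1 and 3, and 1 to 4 with 1 library left out (2 without melatonin replicate 1, control replicate 2 or control replicate 3, 3 without melatonin replicate 4, 1 without control replicate 4). The muscle-restricted median ran from -0.34 to -0.095 with 1 library left out, and was -0.026 without melatonin replicates 1 and 3. Signs turned in 5 genes. KLHL41 was at -0.0021 with median-of-ratios scaling and in DESeq2, -0.0026 with upper quartile scaling, -0.017 without a filter, -0.051 without melatonin replicates 1 and 3, and -0.054 to 0.090 with 1 library left out. Without melatonin replicates 1 and 3, BTBD1 was at 0.052, KLHL17 at 0.0017 and KLHL31 at 0.056. With 1 library left out, BTBD1 ran from -0.21 to 0.0068 and CUL3 from -0.0097 to 0.15. The cause of these shifts was not tested. Whether the replicate numbers pair the samples is not stated in the labels, and these values do not settle it. Same-numbered libraries correlated at -0.027 to 0.18 in their deviations from the group means, and 2 of 4 melatonin libraries correlated best with their own number. With the replicate block, 7 members were at an unadjusted p under 0.05, 4 higher and 3 lower. The bias-adjusted test of edgeR, chosen after seeing the data, gave 6 members. At 46 to 254 counts per library, KLHL25 is the named member most limited by depth.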

Other observations

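KLHL34 and the slow-fibre genes were related across libraries, a relation noticed in the values and then measured. Over the 8 libraries log2(FPKM + 0.1) of KLHL34 and log2 of the summed FPKM of the 6 slow-fibre genes had a Pearson r of 0.914 (two-sided exact permutation p = 0.000992, adjusted p = 0.0456 over the 46 members tried) and a Spearman rho of 0.857 (exact permutation p = 0.0107, adjusted p = 0.493). Without melatonin replicate 2 and control replicate 1, the libraries farthest from the median of the slow-fibre sum, r was 0.824. In those 6 libraries KLHL20 (0.931), KLHL12 (0.896) and KLHL7 (0.854) had a higher r than KLHL34, so the relation is not shown to be particular to it. Both measures are FPKM, which were not TMM-scaled. On TMM-scaled counts of the 8 libraries KLHL20 ran only from -0.071 to 0.076 (log2) from the control mean, and KLHL34 from -1.87 to 1.29. The part of library scaling in these r values was not tested. By the adjusted Pearson p 1 of 46 members passed, and by the adjusted Spearman p 0 did. These p-values come from the same values in which the relation was noticed, so they are no independent test of it. The adjustment covers the 46 members and not the choice of the slow-fibre genes among the marker lists. The 4 libraries of a group are too few for a value within each group.

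KBTBD13, left out by the level filter, measured 0.247, 0.382, 0.0386 and 0.393 FPKM in melatonin replicates 1 to 4 and 1.39, 0.284, 0.791 and 0.390 FPKM in control replicates 1 to 4.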
